A study of Mus musculus with 4 samples.

Results

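Interleukin 6, interleukin 10 and the interleukin 12 family are secreted signals that myeloid cells use to drive or to limit inflammation. The genes described here are 10 of these cytokine, subunit and receptor genes, chosen by name (Il6, Il6ra, Il10, Il10ra, Il10rb, Il12a, Il12b, Il23a, Il27 and Ebi3) out of the 54532 genes in the count table. They were read in CD11b+Ly6g+ myeloid-derived suppressor cells (MDSCs) sorted from the lungs of C57BL/6 mice aged 6 to 8 weeks that carried a pre-metastatic niche (PMN). All 4 groups of mice received intraperitoneal medium conditioned by melanoma cells (MCM, 300 μl per mouse for 10 days) and a tail vein injection of 100000 B16F10 melanoma cells on day 7. The Ctrl group received no peptide, and the other groups received TP5, sFD17 or FR17 under the skin at 40 μM/kg per day from day 3. TP5 is free thymopentin, an immune-modulating pentapeptide. FR17 carries TP5 on a linker that the protease MMP2 cleaves, which frees a fragment that assembles into membrane-like layers. sFD17 has the same design with the pentapeptide scrambled. Lungs were collected on day 10, and each group gave 1 library of the pooled cells of 10 to 12 mice, so no difference has a replicate check.

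IL-6 signals through its own receptor (Il6ra) together with the shared chain gp130, and drives acute-phase and STAT3 responses in myeloid cells. IL-10 binds a receptor of Il10ra and Il10rb, also acts through STAT3, and is known for restraining inflammatory cytokine production. The IL-12 family is made of pairs, each of a helical subunit and a receptor-like subunit. Il12a (p35) with Il12b (p40) makes IL-12, Il23a (p19) with Il12b makes IL-23, Il27 (p28) with Ebi3 makes IL-27, and Il12a with Ebi3 has been described as IL-35. A secreted pair therefore needs both mRNAs, and the level of each subunit was followed separately.

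The libraries held 15543071 to 19638228 counts, and all 10 genes were among the 16367 genes tested, which had at least 10 counts in at least 1 library. Counts were scaled with edgeR's TMM factors, and a difference was called when it reached 2-fold on edgeR's log2 scale with a prior count of 2. Ratios are given with an exact 95% binomial interval of the pair of counts, which covers counting error only. Both genes of the sort were present, with 5711 to 6924 counts of Itgam (CD11b) and 1234 to 2081 of Ly6g. Neutrophil markers dominated, but markers of other cell types were found as well, and of the 100 markers of 11 cell types checked, 0 were at 0 in any library. The 13 macrophage markers, for example, summed to 3517 CPM (counts relative to the scaled library total) in Ctrl, 2310 (TP5), 1204 (sFD17) and 4147 (FR17).

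Of the 10 genes, 5 were found in the RefSeq promoter table of GRCm38.p6 (Il6, Il6ra, Il12a, Il12b and Ebi3). The 250 bases before each start are printed for the 3 of these genes that passed 2-fold in a peptide library, as the stretches nearest to where these mRNAs begin. Capitals mark letters that match one of 5 motifs searched on both strands, which were NF-kB (GGGA and CC with any 4 bases between), C/EBP (TTNNGCAA), STAT (TTCNNNGAA), IRF (a pair of GAAA runs with any 2 bases between) and AP-1 (TGANTCA), where N is any base. Il12a has a pair of annotated starts. The sequences run 5′ to 3′ on the plus strand.
Il6, chr5:30012864-30013113: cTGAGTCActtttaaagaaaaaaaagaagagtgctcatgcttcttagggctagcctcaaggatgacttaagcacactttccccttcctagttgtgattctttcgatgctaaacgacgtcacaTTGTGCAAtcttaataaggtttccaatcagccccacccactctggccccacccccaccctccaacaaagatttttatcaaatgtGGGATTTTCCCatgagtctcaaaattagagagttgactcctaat
Il12a, first start, chr3:68690394-68690643: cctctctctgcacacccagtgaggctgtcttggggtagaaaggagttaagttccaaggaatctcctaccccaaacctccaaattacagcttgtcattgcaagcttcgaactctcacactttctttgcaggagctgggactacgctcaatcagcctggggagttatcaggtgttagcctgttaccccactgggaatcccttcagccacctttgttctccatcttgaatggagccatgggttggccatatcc
Il12a, second start, chr3:68691174-68691423: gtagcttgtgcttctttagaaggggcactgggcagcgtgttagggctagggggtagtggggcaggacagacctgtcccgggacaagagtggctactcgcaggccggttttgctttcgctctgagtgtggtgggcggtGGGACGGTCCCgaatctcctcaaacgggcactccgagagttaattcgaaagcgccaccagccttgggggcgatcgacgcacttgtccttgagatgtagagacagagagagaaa
Il12b, chr11:44399813-44400062: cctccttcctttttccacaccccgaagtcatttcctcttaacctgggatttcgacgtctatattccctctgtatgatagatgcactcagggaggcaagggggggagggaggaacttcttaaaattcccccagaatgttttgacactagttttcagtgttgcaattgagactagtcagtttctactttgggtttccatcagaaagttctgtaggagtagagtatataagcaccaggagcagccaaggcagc

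The Il6 window held an NF-kB match on both strands at −44 to −34 from the start, a C/EBP match at −128 to −121 and an AP-1 match at −249 to −243. The window of the second Il12a start held an NF-kB match on both strands at −113 to −103. The first Il12a window and the Il12b window held 0 matches to these letters. Each of the windows of Il6ra and Ebi3, not printed, held 1 NF-kB match, at −224 to −215 and −44 to −35. All 250 bases of the Il6ra window lie in annotated exons. The bases after the Ebi3 start were not found in an Ebi3 transcript of GENCODE M21. In all 32851 promoter windows of the same length, the NF-kB letters were found in 17.6%, C/EBP in 9.56%, AP-1 in 6.75%, STAT in 7.02% and IRF in 2.98%. A match is a description of the letters and not a binding site.

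Levels were compared between genes per length, as RPKM, the scaled CPM per kilobase of gene length. In the Ctrl library Il10ra was the highest of the 10 genes at 144 RPKM, above 97.7% of the tested genes. Il6 (36.6 RPKM) and Il6ra (35.1 RPKM) came next, and their ratio of 1.04 had an interval of 0.984 to 1.10 that holds 1. They were followed by Ebi3 at 32.0 RPKM, and by Il10rb and Il10 at 27.5 RPKM each, a pair that did not differ beyond counting error (ratio 1.00, 0.912 to 1.10). Il23a stood at 22.4 RPKM. Il27 (4.35), Il12b (1.66) and Il12a (0.975 RPKM) were far lower, so the shared p40 subunit and the p35 subunit were the scarcest mRNAs of the families. Il10ra was highest in every library. The order below it changed, with Il23a second in sFD17 at 48.9 RPKM and Il12b above Il27 in TP5 by a ratio of 1.13 (0.829 to 1.57).

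**Figure D1:**
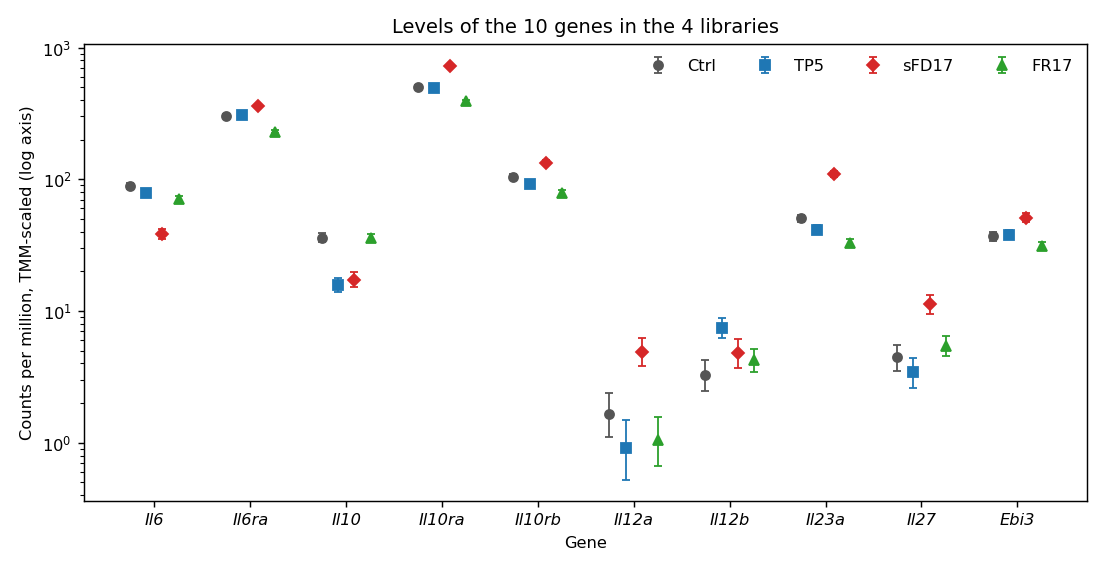
TMM-scaled CPM (log axis) of the 10 genes in the Ctrl, TP5, sFD17 and FR17 libraries. Points are the 4 libraries and bars are exact 95% counting intervals. Il10 was low in TP5 and sFD17, Il6 was low in sFD17, and Il12a, Il23a and Il27 were high in sFD17.

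Il6 encodes the pro-inflammatory cytokine IL-6 (ENSMUSG00000025746, chromosome 5 from 30013114 to 30019981, plus strand, 4 merged exons). Its scaled level was 88.9 CPM in Ctrl, 78.6 (TP5), 38.6 (sFD17) and 70.7 (FR17), from 1502, 1378, 509 and 1622 counts. The sFD17 library stood below the other 3. Il6 in sFD17 was 2.31-fold lower than in Ctrl (2.08 to 2.55). TP5 and FR17 had log2 fold changes of −0.18 and −0.33, neither past 2-fold. Its receptor gene Il6ra (ENSMUSG00000027947, chromosome 3 from 89864059 to 89913196, minus strand) had 303 CPM in Ctrl, 308 (TP5), 357 (sFD17) and 229 (FR17). None of these passed 2-fold, and the largest log2 fold change was −0.41 in FR17. The count ratio of Il6 to Il6ra per length, which does not depend on scaling, was 1.04 in Ctrl, 0.909 (TP5), 0.384 (sFD17) and 1.10 (FR17).

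Il10 encodes the cytokine that limits inflammatory responses (ENSMUSG00000016529, chromosome 1 from 131019845 to 131024974, plus strand, 5 exons). It had 36.0 CPM in Ctrl, 15.7 (TP5), 17.3 (sFD17) and 35.6 (FR17), from 608, 276, 228 and 818 counts. The libraries fell into a high pair, Ctrl and FR17, and a low pair, TP5 and sFD17. Against Ctrl, Il10 was 2.29-fold lower in TP5 (1.98 to 2.65) and 2.08-fold lower in sFD17 (1.79 to 2.44). In FR17 the ratio to Ctrl was 0.990 (0.890 to 1.10), an interval that holds 1. TP5 and sFD17 were not set apart by counting error, with a ratio of sFD17 to TP5 of 1.10 (0.917 to 1.31). In a pool of sorted cells, fewer cells that express a gene and less mRNA per cell cannot be told apart.

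Markers of other cell types also differed between these libraries. Summed macrophage markers stood at 0.657 times Ctrl in TP5, with 11 of 13 lower. They stood at 0.342 times Ctrl in sFD17, with 13 of 13 lower, and at 1.18 times in FR17, with 11 of 13 higher. Without C1qa, the most abundant of them over the 4 libraries, the ratios were 0.681, 0.354 and 1.16. The 8 fibroblast markers stood at 0.556, 0.846 and 1.06 times Ctrl in the same order (152 to 290 CPM over the libraries), and 8 of 8 were lower in TP5 and 7 of 8 in sFD17. The 8 endothelial markers stood at 0.624, 1.18 and 1.31 times Ctrl (81.6 to 172 CPM). Their part in the Il10 difference was not tested. Il6 stood at 0.434 times Ctrl in sFD17 and 0.883 times in TP5, and the part of the macrophage markers in this was not tested either. The 15 neutrophil markers had ratios to Ctrl of 1.10 (TP5), 1.31 (sFD17, with 15 of 15 higher) and 0.897 (FR17).

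**Figure D2:**
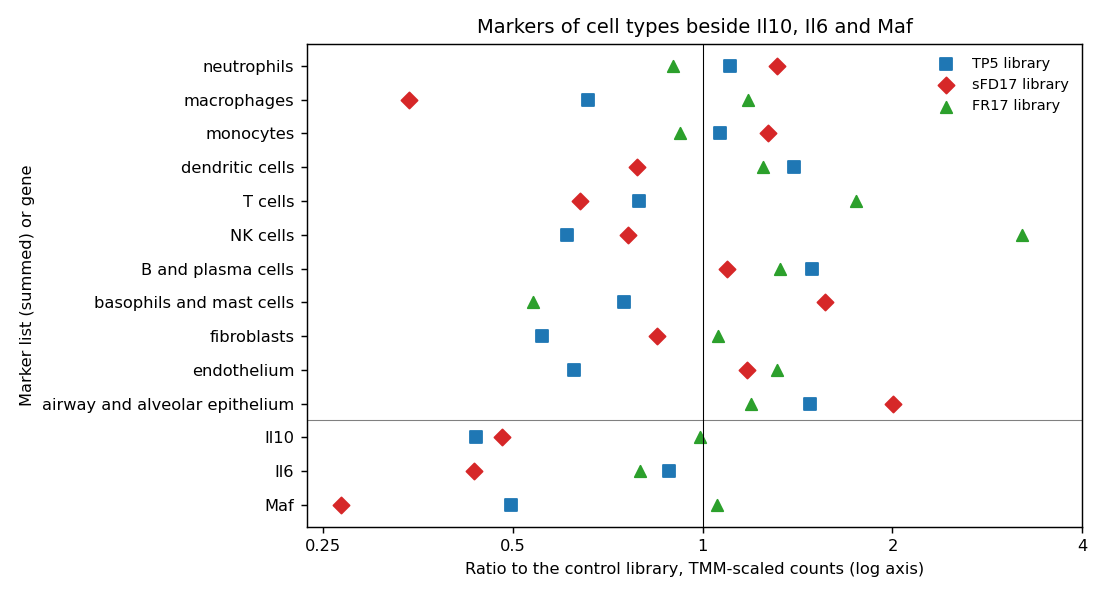
Ratio to the Ctrl library (log axis) of the summed TMM-scaled counts of 11 marker lists, and, below the line, of Il10, Il6 and the transcription factor gene Maf. Points are the TP5, sFD17 and FR17 libraries. Macrophage markers stood at 0.342 in sFD17 and 0.657 in TP5, and Il10 at 0.480 and 0.437.

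The IL-10 receptor chains stayed within 2-fold of Ctrl in every library. Il10ra, the ligand-binding chain (ENSMUSG00000032089, chromosome 9 from 45253837 to 45269149, minus strand), had 505 CPM in Ctrl, 489 (TP5), 725 (sFD17) and 390 (FR17). Its ratio to Ctrl was 1.44 in sFD17 (1.39 to 1.48) and 0.772 in FR17 (0.750 to 0.796). Il10rb, the chain shared with other cytokines of the IL-10 family (ENSMUSG00000022969, chromosome 16 from 91406164 to 91425834, plus strand), had 105 CPM in Ctrl, 92.7 (TP5), 134 (sFD17) and 78.9 (FR17). The 3 receptor genes were thus highest in sFD17 and lowest in FR17, each within 2-fold of Ctrl, except that with library size alone as the scaling Il6ra in sFD17 stood below TP5 (a log2 difference of −0.05). The same tilt was seen across abundant genes: over the 3010 genes with a mean of at least 1000 counts the median log2 fold change was 0.15 in sFD17 and −0.22 in FR17. Of the exon bases of Il10rb, 569 also belong to Gm21970 on the same strand, which had 0 counts in every library. Per length, Il10 stood at 0.190 of Il10ra in Ctrl, 0.0858 (TP5), 0.0636 (sFD17) and 0.244 (FR17). The intervals, which cover counting error only, did not overlap between any of the libraries. The share of other gene pairs without overlap was not computed.

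Among the helical subunits of the IL-12 family, 3 of 3 were past 2-fold and higher in the sFD17 library, where 5.32% of all tested genes were, and 0 of 3 passed in TP5 or FR17. With library size alone as the scaling it was 2 of 3 in sFD17, since Il23a had a log2 fold change of 0.91. Il23a, the p19 chain of IL-23 (ENSMUSG00000025383, chromosome 10 from 128296139 to 128298752, minus strand), had 50.4 CPM in Ctrl, 41.6 (TP5), 110 (sFD17) and 33.0 (FR17). Its level in sFD17 was 2.18 times that in Ctrl (2.00 to 2.37). This is the helical subunit with by far the most counts, 729 to 1450 per library. Il27, the p28 chain (ENSMUSG00000044701, chromosome 7 from 126589010 to 126594941, minus strand), had 4.44 CPM in Ctrl, 3.42 (TP5), 11.3 (sFD17) and 5.45 (FR17). The ratio of sFD17 to Ctrl was 2.54 (1.91 to 3.40). Of its 1021 exon bases, 103 overlap Apobr on the opposite strand, a gene with 4917 to 5554 counts, and whether the counting used strand is not given in the sources used here. Il12a, the p35 chain (ENSMUSG00000027776, chromosome 3 from 68690644 to 68698547, plus strand), rested on 28 counts in Ctrl, 16 (TP5), 65 (sFD17) and 24 (FR17). It was 2.97 times the Ctrl level in sFD17 (1.88 to 4.81), while the intervals in TP5 and FR17 hold 1. Several marker lists were higher in sFD17 too. Neutrophil markers stood at 1.31 times Ctrl (15 of 15 higher), and basophil and mast cell markers at 1.57 times (4 of 7 higher, 1.55 without Hdc). Airway and alveolar epithelium markers stood at 2.00 times (5 of 8 higher, 1.25 without Scgb1a1). Monocyte markers stood at 1.27 times (4 of 8 higher, 1.09 without Nr4a1). Among these Ly6c2 had 275 CPM against 103 in Ctrl and Treml4 241 against 111. Lower were F13a1 (79.1 against 297), Ccr2 (115 against 140), Cx3cr1 (72.4 against 83.7) and Csf1r (906 against 951). These single monocyte markers were named after their values were seen. The part of the marker lists in the levels of the helical subunits was not tested.

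Among the receptor-like subunits, 1 of 2 passed 2-fold and was higher in TP5 (background 3.19%), and 0 of 2 passed in sFD17 or FR17. Il12b, the p40 chain that IL-12 and IL-23 share (ENSMUSG00000004296, chromosome 11 from 44400063 to 44414033, plus strand), had 3.26 CPM in Ctrl, 7.47 (TP5), 4.77 (sFD17) and 4.23 (FR17), from 55, 131, 63 and 97 counts. TP5 was the high library, at 2.29 times Ctrl (1.66 to 3.20). The ratio was 1.47 in sFD17 (1.00 to 2.14) and 1.30 in FR17 (0.923 to 1.84). The 10 dendritic cell markers were also higher in TP5, at 1.40 times Ctrl with 8 of 10 higher (739 against 529 CPM), but stood at 0.787 times in sFD17 and 1.25 times in FR17, and their part in the Il12b difference was not tested. Ebi3, the partner chain of Il27 (ENSMUSG00000003206, chromosome 17 from 55952640 to 55957022, plus strand), had 36.9 CPM in Ctrl, 38.0 (TP5), 51.0 (sFD17) and 31.3 (FR17), all within 2-fold. Of its exon bases, 270 overlap Gm16712 on the opposite strand, with 280 to 347 counts.

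Counted together, 5 of the 10 genes passed 2-fold in sFD17 against Ctrl, 3 higher and 2 lower, where 11.8% of all tested genes did (5.32% higher and 6.47% lower). With library size alone these were 2 higher and 2 lower. In TP5 it was 2 of 10, Il12b higher and Il10 lower, against 8.17% of all tested genes (3.19% higher and 4.99% lower). In FR17 it was 0 of 10, against 7.48% (3.91% higher and 3.57% lower). Among the 11670 genes within the count range of the 10 genes, the shares past 2-fold were lower, at 6.69% in sFD17, 3.27% in TP5 and 2.56% in FR17. The median absolute log2 fold change of the 10 genes was 0.80 in sFD17, 0.23 in TP5 and 0.37 in FR17, beside 0.34, 0.24 and 0.30 over all tested genes. The signed medians were 0.49, −0.18 and −0.35, beside −0.03, 0.00 and 0.02. With the exact test of edgeR between single libraries, at an unadjusted p under 0.05, which compares the libraries and not the conditions, the same 5 genes were called in sFD17, Il10 alone in TP5 and 0 in FR17, where 4.83%, 1.98% and 1.86% of all tested genes were called. These comparisons share the Ctrl library. The FR17 ratios farthest from 1 were 0.631 for Il12a (0.350 to 1.13) and 0.655 for Il23a (0.593 to 0.723).

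**Figure D3:**
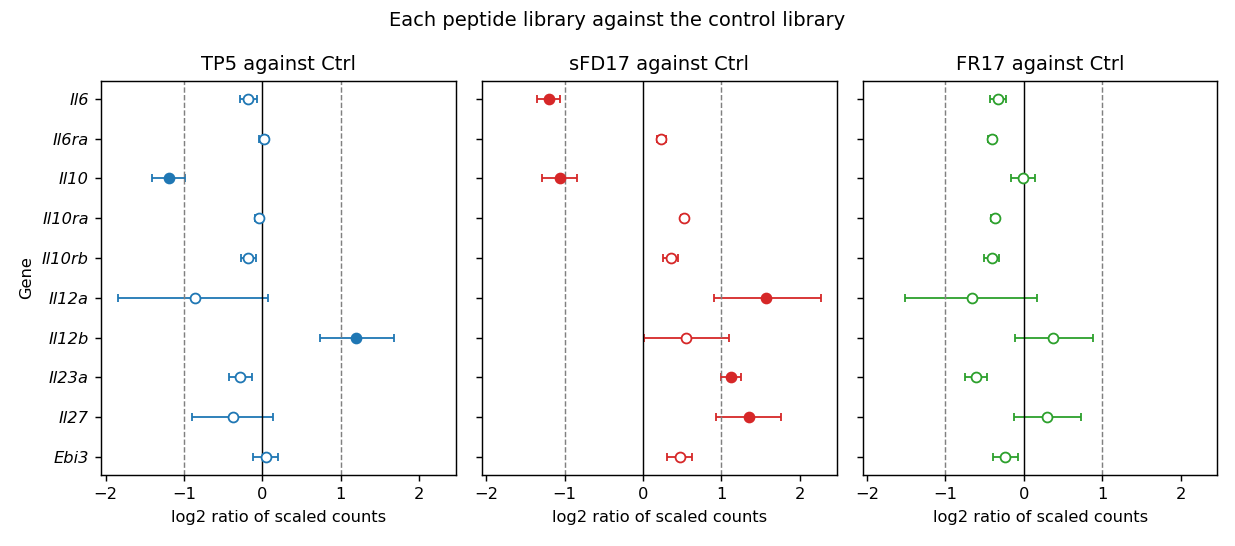
Log2 ratio of TMM-scaled counts of each peptide library to the Ctrl library for the 10 genes. Points are ratios and bars exact 95% counting intervals, filled points are past 2-fold and dashed lines mark 2-fold. There are 2 filled points for TP5, 5 for sFD17 and 0 for FR17.

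Ratios between subunits of one library do not depend on how the libraries were scaled. Il23a exceeded Il12b per length by 13.6 in Ctrl (10.3 to 18.2) and 20.1 in sFD17 (15.7 to 26.4), but by 4.87 in TP5 (4.04 to 5.91) and 6.84 in FR17 (5.53 to 8.54). The intervals of TP5 and FR17 lay below that of Ctrl, and those of sFD17 and Ctrl overlapped. For the IL-12 pair, Il12a to Il12b was 0.589 in Ctrl (0.360 to 0.944), 0.141 in TP5 (0.0784 to 0.238), 1.19 in sFD17 (0.831 to 1.71) and 0.286 in FR17 (0.175 to 0.451). The interval of TP5 lay below those of Ctrl and sFD17 and overlapped that of FR17. In every library p40 mRNA was scarcer than p19 mRNA, and p28 was scarcer than its partner. Il27 to Ebi3 was 0.136 in Ctrl (0.106 to 0.173), 0.102 in TP5 (0.0768 to 0.133), 0.250 in sFD17 (0.208 to 0.299) and 0.196 in FR17 (0.161 to 0.238). Il12a to Ebi3, the IL-35 pair, ran from 0.0163 in TP5 to 0.0655 in sFD17.

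The balance of Il10 with the inflammatory cytokines differed between libraries as well. Il10 to Il6 per length was 0.750 in Ctrl (0.682 to 0.825), 0.371 in TP5 (0.325 to 0.423), 0.830 in sFD17 (0.707 to 0.972) and 0.935 in FR17 (0.858 to 1.02). The intervals of sFD17, where both cytokines were low, and Ctrl overlapped, while TP5 lay below and FR17 above the interval of Ctrl. Il10 to Il23a was 1.22 in Ctrl (1.10 to 1.36), 0.649 in TP5 (0.563 to 0.747), 0.270 in sFD17 (0.234 to 0.310) and 1.85 in FR17 (1.67 to 2.05). The 4 intervals of this ratio do not overlap. They cover counting error only, with 1 library per group, and the share of other gene pairs without overlap was not computed.

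**Figure D4:**
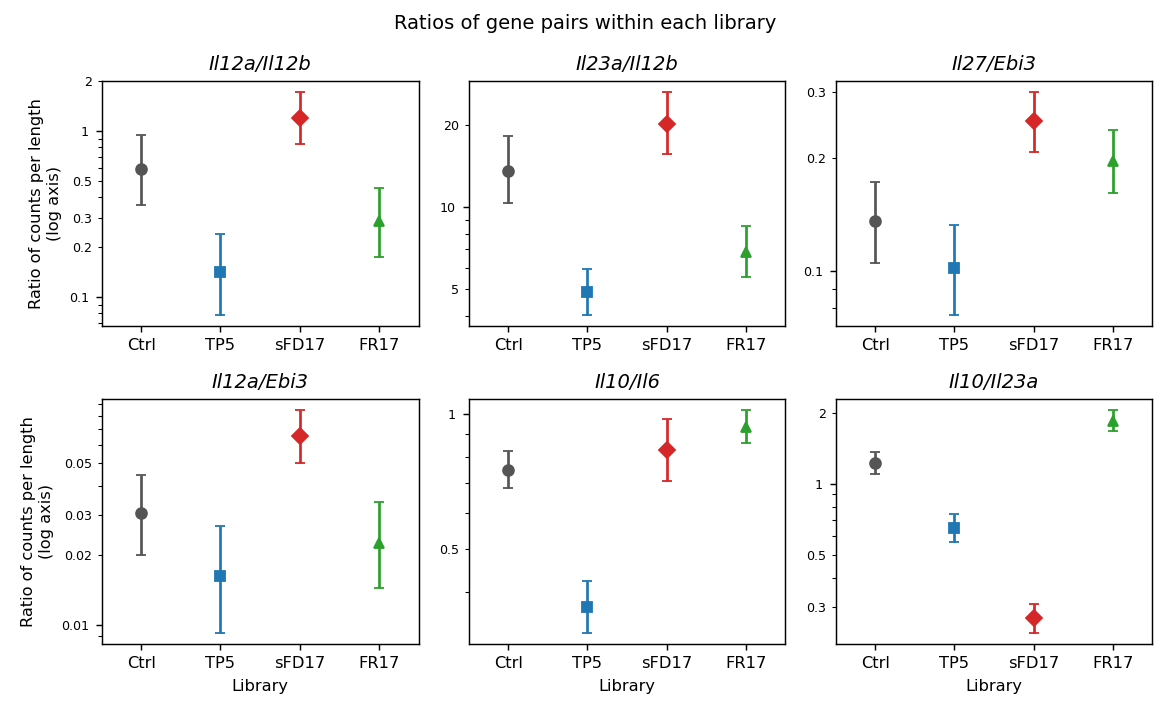
Ratio of the counts per length of 6 gene pairs within each library (log axes, which differ between panels), with exact 95% counting intervals as bars. Il23a/Il12b was lower in TP5 (4.87) and FR17 (6.84) than in Ctrl (13.6), and Il10/Il23a ran from 0.270 in sFD17 to 1.85 in FR17.

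The peptides were also compared with each other at the same dose and days, in 3 pairs of libraries. FR17 and sFD17 differ in the order of the residues of the pentapeptide, and 4 of the 10 genes differed by 2-fold between them, where 22.1% of all tested genes did (11.3% higher and 10.8% lower in FR17). Il10 in FR17 was 2.06 times its level in sFD17 (1.78 to 2.40). Il12a was 4.71-fold lower (2.91 to 7.87), Il23a 3.33-fold lower (3.05 to 3.64) and Il27 2.07-fold lower (1.62 to 2.65) in FR17. With library size alone as the scaling the split of 1 higher and 3 lower became 2 higher (Il6 and Il10) and 2 lower (Il12a and Il23a), and with DESeq2's size factors 0 higher and 3 lower. When low counts were not filtered, 1 was higher and 2 were lower, with Il27 at a log2 fold change of −0.93. Il12b did not differ beyond counting error, with a ratio of 0.885 (0.638 to 1.24). FR17 and TP5 differ in the assembling backbone, and 1 of 10 genes differed by 2-fold, where 9.92% of all tested genes did (7.04% higher and 2.88% lower in FR17). That gene was Il10, at 2.26 times its TP5 level in FR17 (1.97 to 2.61). Between sFD17 and TP5, 4 of 10 differed, where 12.4% of all tested genes did (6.74% higher and 5.64% lower in sFD17). Il12a in sFD17 was 5.40 times its TP5 level (3.09 to 10.0), Il27 3.30 times (2.43 to 4.53) and Il23a 2.64 times (2.42 to 2.89), and Il6 was 2.04-fold lower (1.84 to 2.26). With DESeq2's size factors this split of 3 higher and 1 lower became 3 higher and 0 lower. edgeR's exact test called 3 of the 10 genes between FR17 and sFD17, 1 between FR17 and TP5 and 4 between sFD17 and TP5, where it called 12.7%, 3.67% and 4.64% of all tested genes. Among genes within the count range of the 10 genes, the shares past 2-fold in these pairs were 16.6%, 4.73% and 7.08%.

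The other genes of these pathways were read from 7 lists of 4 to 13 genes. Beside their counts against Ctrl stand the shares of all tested genes past 2-fold, 8.17% for TP5, 11.8% for sFD17 and 7.48% for FR17, so that 0 or 1 gene of such a list is near the background. Of 12 other IL-6 family ligands and receptors 8 could be tested, and 0 of them passed 2-fold in sFD17 (background 11.8%) or FR17 (7.48%). The most abundant was Osm, the gene of oncostatin M, with 346 RPKM in Ctrl, 289 (TP5), 479 (sFD17) and 250 (FR17), above Il6 in every library. In TP5 1 gene of this list was lower, Osmr, the oncostatin M receptor, with 15 counts against 32 in Ctrl, named after its values were seen. Il6st, which encodes gp130, had 4.58 to 5.20 RPKM over the libraries and was also named after its values were seen. Of 11 other IL-10 family genes 3 could be tested, with 0 past 2-fold against Ctrl, and the most abundant was the interferon lambda receptor gene Ifnlr1 at 3.15 to 7.56 RPKM. Il24, Ifnl2, Ifnl3 and Il20ra had 0 counts in every library. In FR17 against sFD17, Ifnlr1 (log2 fold change −1.26) and Il22ra2 (−1.14, 23 against 31 counts) were past 2-fold lower, beside a background of 22.1% (10.8% lower). Il22ra2 was past 2-fold higher in sFD17 against TP5 (1.19, background 12.4%) and was named after its values were seen. Of the 4 IL-12 family receptor genes, 1 passed 2-fold in FR17 (background 7.48%, with 3.91% higher) and 0 in TP5 (8.17%) or sFD17 (11.8%). That gene was Il23r, with 26 counts in FR17 against 5 in Ctrl (a ratio of 3.83, 1.45 to 12.8), named after its values were seen, and edgeR's exact test did not call it. Markers of NK cells and T cells, which carry receptors of the IL-12 family, stood at 3.20 and 1.75 times Ctrl in FR17, with 7 of 7 and 8 of 8 higher, and their part was not tested. The most abundant of these receptors was Il27ra, the IL-27 receptor, with 2.34 RPKM in Ctrl, 2.79 (TP5), 1.76 (sFD17) and 3.15 (FR17). In FR17 against TP5, Osmr (48 against 15 counts) and the IL-12 family receptor gene Il12rb1 (66 against 24) were past 2-fold higher, beside a background of 9.92%. Il12rb1 was named after its values were seen.

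Of 10 JAK, STAT and SOCS genes 0 passed 2-fold in any peptide library against Ctrl, near the background of 8.17% (TP5), 11.8% (sFD17) and 7.48% (FR17), and the list median log2 fold change was −0.09 (TP5), 0.47 (sFD17) and −0.45 (FR17). Socs3, the feedback inhibitor of gp130 signaling, was the most abundant of them, with 296 RPKM in Ctrl, 224 (TP5), 356 (sFD17) and 216 (FR17). Of 10 STAT3-responsive genes 0 passed beside the same background, with medians of −0.27, 0.32 and −0.46, and the most abundant was Junb. Of 6 genes of cytokine mRNA decay and stability 0 passed beside the same background, with medians of −0.06, 0.37 and −0.41, and the most abundant was Zfp36, which encodes the mRNA-destabilizing protein tristetraprolin and is also in the STAT3 list. Against Ctrl the medians of these lists were highest in sFD17 and lowest in FR17. The abundant genes given above had the same order, at −0.01 (TP5), 0.15 (sFD17) and −0.22 (FR17). The list medians were larger in size, and the part of this tilt in them was not tested. Of 13 transcription factor genes that act on the cytokine genes, 1 passed 2-fold in TP5 and the same 1 in sFD17, near the background of 8.17% and 11.8%. That gene, Maf, was lower in both. Maf encodes the transcription factor c-Maf. It had 1933 counts in Ctrl, 996 (TP5), 403 (sFD17) and 2770 (FR17), which gave 13.9, 6.89, 3.71 and 14.6 RPKM. Maf was 2.02-fold lower than Ctrl in TP5 (1.87 to 2.18) and 3.75-fold lower in sFD17 (3.36 to 4.18), with a ratio of 1.05 in FR17 (0.995 to 1.12). In sFD17 Maf was also 1.86-fold lower than in TP5 (1.65 to 2.09), while the interval of Il10 for that pair holds 1. Macrophage markers were low in TP5 and sFD17 as well, and any part of Maf or of these markers in the Il10 levels was not tested. Between peptides, Nfkbiz and Irf1 of this list were past 2-fold lower and Maf higher in FR17 against sFD17 (background 22.1%), Maf was higher in FR17 against TP5 (9.92%) and Irf1 in sFD17 against TP5 (12.4%), with Nfkbiz and Irf1 named after their values were seen. The median of the 13 factors was −0.03 (TP5), 0.43 (sFD17) and −0.20 (FR17).

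**Figure D5:**
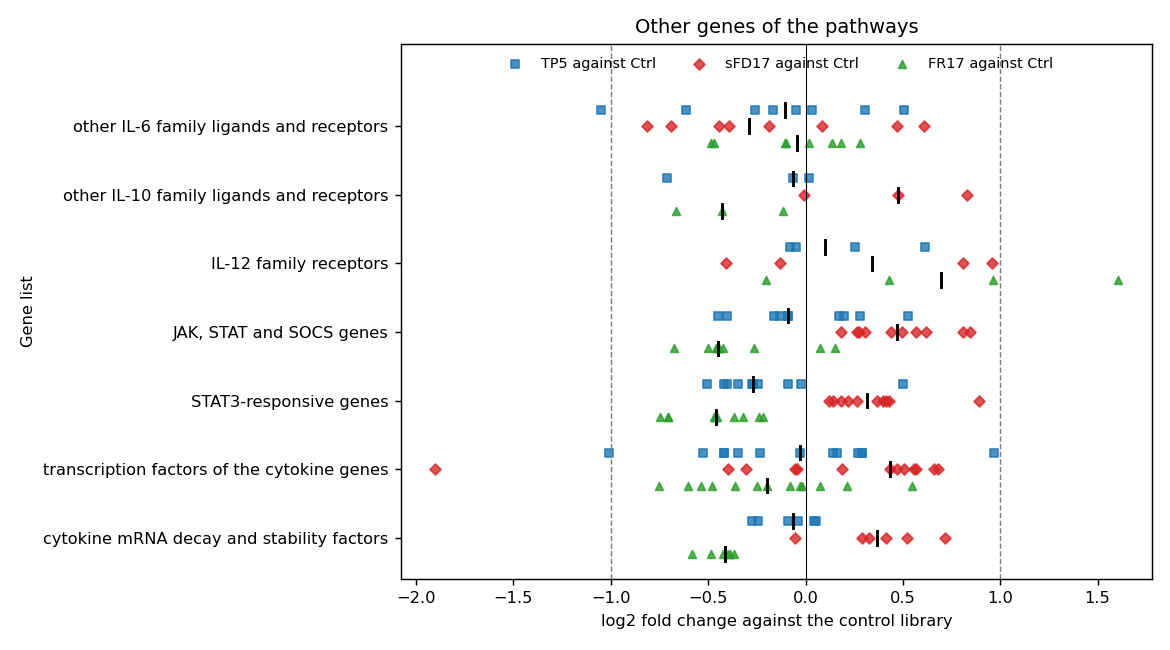
Log2 fold change against the Ctrl library of the tested genes of 7 pathway lists. Points are genes, black ticks are list medians and dashed lines mark 2-fold. Past 2-fold lie Osmr and Maf in TP5, Maf in sFD17 and Il23r in FR17.

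The genes whose course over the 4 libraries was most like that of each gene were found among 9799 genes with at least 50 counts in every library, by the root mean square difference of centred log2 CPM. With 4 libraries this is a description only. Nearest to Il10 were Icam2 (0.0662), Dcn (0.0970) and Dpt (0.107). Dcn, with 509, 226, 177 and 765 counts in Ctrl, TP5, sFD17 and FR17, is also in the fibroblast marker list. Nearest to Il23a were Fas (0.0320), Gbp9 (0.0427) and Nfkbie (0.0502). Nearest to Il27 was Gbp3 (0.0367), followed by Tapbpl (0.139) and Gm4070 (0.166). For Il12a they were Gbp7 (0.123), Oas2 (0.126) and Gm13822 (0.129). Gbp3, Gbp7 and Gbp9 are guanylate-binding protein genes, whose related sequences can share reads. For Il12b they were Wnt11 (0.0133), Gprc5a (0.0469) and the pseudogene Tcea1-ps1 (0.0726). For Il6 they were Suclg2 (0.0769), Nol8 (0.0876) and Polr2k (0.0939).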

How the data were processed

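The mRNA of sorted lung MDSCs was measured in 4 libraries, 1 per group. The authors deposited 1 table of raw counts and gene lengths, without normalization. Per the labels, the submitters' processing notes name HISAT2 2.0.5, StringTie 1.3.3b, featureCounts 1.5.0-p3 and edgeR 3.18.1 and the build GRCm38.p6. All 10 genes have the same coordinates in GENCODE M21. Sample columns left unmapped numbered 0. Of the rows that share a symbol (100 symbols), the one with the highest count was kept.

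The software was edgeR 4.0.16 and DESeq2 1.42.0 under R 4.3.3, and pandas 2.3.3, numpy 2.4.6, scipy 1.17.1 and matplotlib 3.10.9. Genes reaching 10 counts in any library were scaled by TMM, and log2 CPM used a prior count of 2. A call was a 2-fold difference. With 1 library per group edgeR's quasi-likelihood test cannot be fitted, and no p-value is given. edgeR's exact test at an unadjusted p under 0.05 was an alternative, with a trended dispersion over the 4 libraries as 1 group (common biological coefficient of variation 0.267). Intervals are Clopper-Pearson at 95% and cover counting error only. RPKM used the deposited gene lengths.

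The 10 genes were named in advance, and all are reported. In each list up to 4 genes past 2-fold against Ctrl with at least 50 counts in a library were named, otherwise the most abundant, and for each of the 10 genes with such counts and a range of at least 1 in log2 CPM the 3 genes nearest in course. The genes and lists were chosen with earlier results of these data known. The procedure was tested on simulated data. The choices tried in turn were no filter, a minimum of 10 counts in every library, scaling by DESeq2's size factors or by library size alone, a prior count of 0.5, a 1.5-fold call, a 2-fold call whose interval leaves out 1, and the exact test.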

Additional observations from a re-analysis of the deposited data

How the results depend on the processing

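The numbers of genes past 2-fold in the 6 pairs of libraries moved by no more than 1.5 times under DESeq2's size factors, library size alone, either filter on low counts, a prior count of 0.5 and a 2-fold call with an interval that leaves out 1. With a 1.5-fold call the number went from 0 to 2 for FR17 against Ctrl, from 4 to 9 for FR17 against sFD17 and from 1 to 3 for FR17 against TP5. With edgeR's exact test it went from 2 to 1 for TP5 against Ctrl, where Il12b was not called. None of the genes past 2-fold changed direction under these scalings, filters and prior counts. Single genes near the limit did cross it. Il23a in sFD17 against Ctrl had a log2 fold change of 0.91 with library size alone. In FR17 against sFD17, Il10 had 0.99 with DESeq2's size factors, Il6 had 1.33 with library size alone, and Il27 had −0.58 with library size alone and −0.93 without a filter on low counts. Il6 in sFD17 against TP5 had −0.98 with DESeq2's size factors. Library size alone moved the median of all genes to −0.23 in sFD17 and 0.26 in FR17 against Ctrl. Under no filter the genes past 2-fold over the whole table went from 1338 to 3095 in TP5, 1930 to 4211 in sFD17 and 1225 to 2890 in FR17, and with at least 10 counts in every library to 503, 914 and 447, since fewer or more low genes enter. No paired analysis was possible because each group has 1 library. Depth limits Il12a most, with 16 to 65 counts, and Il12b and Il27 next.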
